A study of Mus musculus with 10 samples.

Results

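Of the 33487 H3K4me3 peaks that the authors deposited for F123 cells, 5002 (14.9%) lay between genes and far from every annotated start. They were the peaks of chromosomes 1 to 19 under 5000 bp wide that overlapped no gene body of any type in GENCODE M21 (mm10) and lay over 5 kb from every annotated transcript start. They made up 15.6% of the 32093 peaks of those chromosomes under 5000 bp, and are called intergenic peaks here. The remaining peaks under 5000 bp formed a start-proximal class of 22954 peaks within 5 kb of a start and an intragenic distal class of 4137 peaks inside genes but over 5 kb from every start. F123 is a mouse embryonic stem cell (mESC) line from the F1 of a castaneus by S129/SvJae cross, kept on irradiated CF1 feeder fibroblasts in medium with LIF and passaged once without feeders on gelatin. The cells were untreated, and the H3K4me3 ChIP-seq used 2000000 cells and the ATAC-seq 100000 cells per sample, with 2 replicates of each assay. The 2 ChIP-seq inputs and 4 PLAC-seq samples were not used here. Each assay is represented by 1 list that stands for both replicates, so no value has a spread between replicates, peaks are not replicates of a condition, and no p-value is given.

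H3K4me3, trimethylation of lysine 4 on histone H3, is placed by the Set1 and MLL methyltransferase complexes and is strongest on the nucleosomes beside transcription starts, above all at CpG islands, where proteins with CXXC domains bind unmethylated CpG. Active enhancers usually carry more monomethylation than trimethylation at the same residue, although weak H3K4me3 is often found there. Transfer RNA (tRNA) genes are transcribed by RNA polymerase III from promoter elements inside the gene, the A box and the B box, which the factor TFIIIC binds, and GENCODE M21 holds no tRNA genes on these chromosomes.

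The sequences below show what lay at the strongest intergenic peaks. For each of the 3 strongest intergenic peaks, 300 bases of the plus strand of mm10 around the summit are printed with every CpG in capitals. mm10 is the C57BL/6J reference, so these letters are not those of the castaneus and S129/SvJae alleles in the cells.
chr19:12011232-12011531: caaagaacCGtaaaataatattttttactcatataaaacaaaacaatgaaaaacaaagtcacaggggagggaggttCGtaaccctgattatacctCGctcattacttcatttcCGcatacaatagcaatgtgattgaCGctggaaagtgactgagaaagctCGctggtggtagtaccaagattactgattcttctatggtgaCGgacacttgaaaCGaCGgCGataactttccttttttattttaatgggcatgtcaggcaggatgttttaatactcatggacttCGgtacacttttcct
chr2:122377595-122377894: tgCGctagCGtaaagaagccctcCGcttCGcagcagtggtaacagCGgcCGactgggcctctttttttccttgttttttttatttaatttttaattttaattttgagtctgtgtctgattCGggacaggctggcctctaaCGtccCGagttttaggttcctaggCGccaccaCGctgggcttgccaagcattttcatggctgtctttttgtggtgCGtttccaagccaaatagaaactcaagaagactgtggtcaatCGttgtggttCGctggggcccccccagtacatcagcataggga
chr13:21855683-21855982: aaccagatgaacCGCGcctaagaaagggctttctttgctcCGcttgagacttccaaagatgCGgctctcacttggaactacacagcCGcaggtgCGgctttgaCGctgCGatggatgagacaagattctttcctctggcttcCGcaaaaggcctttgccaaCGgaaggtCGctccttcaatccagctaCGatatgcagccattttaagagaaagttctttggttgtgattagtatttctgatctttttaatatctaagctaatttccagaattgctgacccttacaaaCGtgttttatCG

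All 3 windows lay beside tRNA genes and held none themselves. The genes below, from RefSeq on the same build, were inside the first 2 of these peaks and are printed in their own direction of transcription with the B box motif GTTCNANNC in capitals. The first 3 came from the strongest peak, which reached from 12009768 to 12012361 on chromosome 19 and overlapped 5 tRNA genes, 1 of them by a single base.
n-TLtaa4, leucine, chr19:12011086-12011168, minus strand: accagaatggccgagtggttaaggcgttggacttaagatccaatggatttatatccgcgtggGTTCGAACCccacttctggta
n-TRtct1, arginine, chr19:12011588-12011673, minus strand: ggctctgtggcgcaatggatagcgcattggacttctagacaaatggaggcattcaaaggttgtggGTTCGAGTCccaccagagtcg
n-TVtac1, valine, chr19:12011931-12012003, plus strand: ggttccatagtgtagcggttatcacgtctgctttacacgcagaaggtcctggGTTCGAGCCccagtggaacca
n-THgtg5, histidine, chr2:122377968-122378039, plus strand: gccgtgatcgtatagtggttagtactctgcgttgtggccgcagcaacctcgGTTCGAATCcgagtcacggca

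The 3 strongest intergenic peaks without an ATAC-seq peak are printed for contrast, with CpG again in capitals. Their nearest protein-coding genes were Sncg (synuclein gamma), the homeobox gene Nkx2-3 and BC107364, in this order, and their windows held 6, 17 and 27 CpG.
chr14:34365772-34366071: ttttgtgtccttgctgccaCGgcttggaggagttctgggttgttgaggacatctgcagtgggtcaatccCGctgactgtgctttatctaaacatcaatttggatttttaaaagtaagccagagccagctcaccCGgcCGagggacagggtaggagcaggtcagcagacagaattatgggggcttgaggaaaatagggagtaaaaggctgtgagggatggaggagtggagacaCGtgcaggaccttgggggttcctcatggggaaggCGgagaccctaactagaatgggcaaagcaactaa
chr19:43599670-43599969: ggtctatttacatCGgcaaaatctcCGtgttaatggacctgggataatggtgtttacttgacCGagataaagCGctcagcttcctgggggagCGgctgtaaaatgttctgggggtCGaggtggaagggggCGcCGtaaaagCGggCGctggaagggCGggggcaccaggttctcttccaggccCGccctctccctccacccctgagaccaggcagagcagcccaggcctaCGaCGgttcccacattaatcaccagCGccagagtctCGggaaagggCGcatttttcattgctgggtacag
chr3:96474956-96475255: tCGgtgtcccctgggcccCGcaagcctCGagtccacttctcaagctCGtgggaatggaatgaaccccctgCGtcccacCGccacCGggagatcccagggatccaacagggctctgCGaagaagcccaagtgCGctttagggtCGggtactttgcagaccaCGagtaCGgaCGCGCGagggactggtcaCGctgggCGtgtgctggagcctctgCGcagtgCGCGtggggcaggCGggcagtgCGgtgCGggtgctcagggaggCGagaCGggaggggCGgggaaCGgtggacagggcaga

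The strongest intergenic peaks whose nearest protein-coding genes were Klf4, Sall1 and Sall4, all transcription factor genes of embryonic stem cells, held 22, 5 and 9 CpG in the same window.
chr4:55651258-55651557, nearest gene Klf4: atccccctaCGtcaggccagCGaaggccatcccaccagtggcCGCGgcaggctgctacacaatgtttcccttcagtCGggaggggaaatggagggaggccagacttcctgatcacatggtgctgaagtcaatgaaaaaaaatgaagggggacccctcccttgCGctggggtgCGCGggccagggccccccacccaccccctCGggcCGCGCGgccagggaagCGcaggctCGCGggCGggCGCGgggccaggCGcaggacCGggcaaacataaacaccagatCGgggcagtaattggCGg
chr8:89052648-89052947, nearest gene Sall1: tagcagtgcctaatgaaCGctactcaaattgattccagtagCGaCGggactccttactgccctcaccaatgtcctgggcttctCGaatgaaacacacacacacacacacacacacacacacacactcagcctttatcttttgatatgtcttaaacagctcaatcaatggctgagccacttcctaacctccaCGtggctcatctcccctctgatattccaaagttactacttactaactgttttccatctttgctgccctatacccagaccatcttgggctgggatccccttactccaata
chr2:168840205-168840504, nearest gene Sall4: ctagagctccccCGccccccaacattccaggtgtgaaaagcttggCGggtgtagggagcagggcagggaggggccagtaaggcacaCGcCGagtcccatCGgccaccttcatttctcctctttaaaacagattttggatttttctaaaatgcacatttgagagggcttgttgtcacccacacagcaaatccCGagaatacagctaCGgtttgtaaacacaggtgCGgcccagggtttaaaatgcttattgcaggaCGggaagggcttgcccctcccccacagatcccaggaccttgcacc

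Intergenic peaks were narrow and weak beside start-proximal peaks, and nearly the same in size as intragenic distal peaks. Their median width was 610 bp (25th to 75th percentile 419 to 940 bp, range 209 to 4626 bp), against 589 bp for intragenic distal and 1517 bp for start-proximal peaks. The fold enrichment, a ratio over background that the authors' peak caller gave each peak, had a median of 4.21 (95% interval of the median 4.15 to 4.30, range 1.74 to 61.0). The medians were 4.14 (4.05 to 4.21) for intragenic distal and 16.5 (16.0 to 16.9) for start-proximal peaks. A fold enrichment under 6 was found for 70.2% of the intergenic peaks and for 29.3% of the start-proximal peaks. At the other end, 151 intergenic peaks (3.02%, Wilson interval 2.58 to 3.53) had a fold enrichment of 20 or more, against 44.9% of the start-proximal peaks. The median −log10 q was 12.4, and 22 intergenic peaks had a q above 0.01. All intervals here are 95% intervals and cover counting error only.

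**Figure D1:**
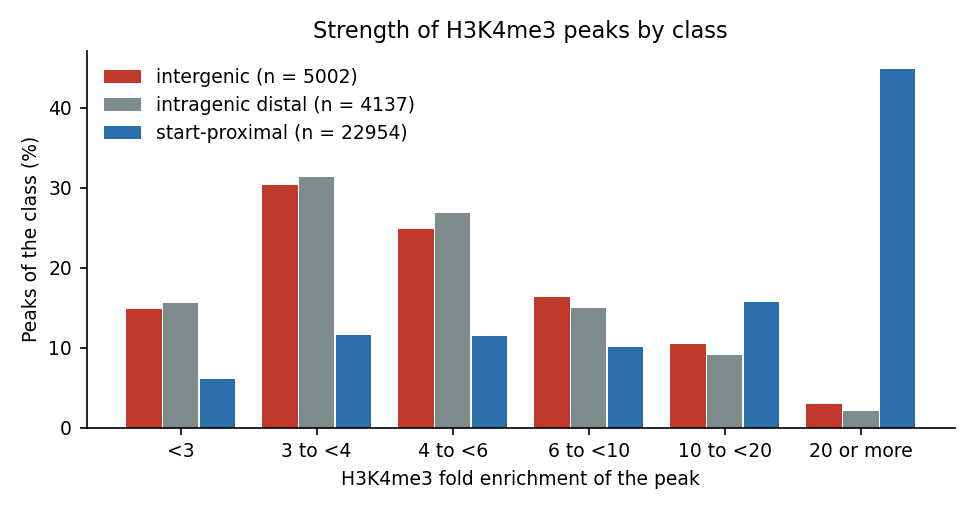
Share of the peaks of each class (%, vertical axis) in 6 ranges of H3K4me3 fold enrichment (horizontal axis), for the intergenic, intragenic distal and start-proximal peaks of chromosomes 1 to 19 under 5000 bp. Intergenic and intragenic distal peaks are most frequent between 3 and 4, while 44.9% of the start-proximal peaks are at 20 or more.

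At the limits of the rule, the widest intergenic peak was 4626 bp and the narrowest peak left out by width was 5032 bp, with a fold enrichment of 16.3. The next peak left out by width, of 5169 bp, lay 113 bp before the strongest intergenic peak and overlapped 2 tRNA genes. The intergenic peak nearest to a start, on chromosome 5, was 5007 bp from the antisense gene Srrm4os. It was weak, with a fold enrichment of 3.64.

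The intergenic peaks were a median of 15609 bp from the nearest start of any kind and 28195 bp from the nearest protein-coding start. The nearest start was of a protein-coding gene for 2212 intergenic peaks (44.2%), of a long noncoding RNA for 1071 and of a pseudogene for 1070. With distance, the median fold enrichment was lower in each range, from 4.44 for the 1390 peaks 5 to 10 kb from a start to 3.604 for the 132 peaks over 100 kb away. The farthest intergenic peak, chr1:114771164-114771682, lay 448081 bp from any start, overlapped an ATAC-seq peak and had a fold enrichment of 5.20. The next 2, on chromosome 18, were 417546 and 415027 bp from a start, with fold enrichments of 3.58 and 8.45, and only the stronger of them overlapped an ATAC-seq peak.

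Sequence outside genes and over 5 kb from starts made up 1047 Mb, or 43.7% of the known bases of chromosomes 1 to 19. It held 4.78 intergenic peaks per Mb, which together covered 0.368% of it, while the rest of these chromosomes held 20.1 other peaks per Mb. The density of intergenic peaks was lowest on chromosome 14, at 2.92 per Mb, and highest on chromosome 11, at 8.14 per Mb. These 2 chromosomes also held the lowest and highest density of other peaks, at 13.3 and 29.7 per Mb.

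Most intergenic peaks were in open chromatin. ATAC-seq, in which the Tn5 transposase cuts accessible DNA, gave a peak overlapping 3896 of the 5002 intergenic peaks (77.9%, Wilson interval 76.7 to 79.0), where the share of all 32093 peaks under 5000 bp was 86.8%. The share was 80.7% (79.5 to 81.9) for intragenic distal and 89.8% (89.4 to 90.2) for start-proximal peaks. The intergenic share was thus 11.95 percentage points under the start-proximal share (difference −11.95, Newcombe interval −13.2 to −10.8).

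At like strength the intergenic share was not under that of start-proximal peaks, but in weak peaks it was under that of intragenic distal peaks. Among peaks with a fold enrichment under 3, 57.9% (54.3 to 61.4) of the intergenic, 52.5% (49.9 to 55.1) of the start-proximal and 65.7% (61.9 to 69.2) of the intragenic distal peaks overlapped an ATAC-seq peak. In the range from 3 to 4 the shares were 61.3% (58.9 to 63.8), 61.2% and 69.2% (66.6 to 71.6), in this order. From 6 to 10 they were 97.1%, 95.1% and 96.8%, and all 151 intergenic peaks of 20 or more overlapped an ATAC-seq peak. With the start-proximal peaks weighted to the strengths of the intergenic peaks, their share became 75.8%. These comparisons at like strength used an overlap of at least 1 bp, and stricter overlaps were not compared in this way. No read counts accompany these lists, and their depth is unknown.

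The 1106 intergenic peaks without an ATAC-seq peak had a median fold enrichment of 3.29, a median width of 462 bp and a maximum fold enrichment of 10.9. Those with an ATAC-seq peak had medians of 4.87 and 674 bp. The mean repeat-masked share of the 300 bp around the summit was 27.5% without and 16.6% with an ATAC-seq peak. For 335 of the 1106, the centre of an ATAC-seq peak still lay within 1 kb of the summit. Where both marks overlapped, the summit was a median of 154 bp from the centre of the nearest ATAC-seq peak, against 159 bp in start-proximal peaks. Seen from the other side, only 4719 of the 55675 ATAC-seq peaks in the same sequence (8.48%, 8.25 to 8.71) overlapped an intergenic H3K4me3 peak. This share was 3.79% for ATAC-seq peaks under 200 bp wide, 5.82% from 200 to 400 bp, 16.6% from 400 to 800 bp and 28.0% for wider ones.

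The sequence under intergenic peaks was mostly not CpG-dense. A summit window of 300 bp with a GC content over 50% and a CpG observed to expected ratio over 0.6 was found at 616 intergenic peaks (12.3%, 11.4 to 13.3), where the share of all 32093 peaks was 44.0%. It was 16.4% for intragenic distal and 55.9% for start-proximal peaks, and 21.2% for the latter when weighted to the strengths of the intergenic peaks. Windows 5 kb to either side of the same intergenic summits were CpG-dense in 1.07% of cases, and their mean repeat-masked share was 35.3%, against 18.98% at the summits. Among intergenic peaks the CpG-dense share was 2.41% under a fold enrichment of 3 and 54.3% (46.4 to 62.0) at 20 or more. Unlike the ATAC-seq share, it stayed under that of start-proximal peaks in every range, and at 20 or more the difference was −35.2 percentage points (−43.2 to −27.5).

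**Figure D2:**
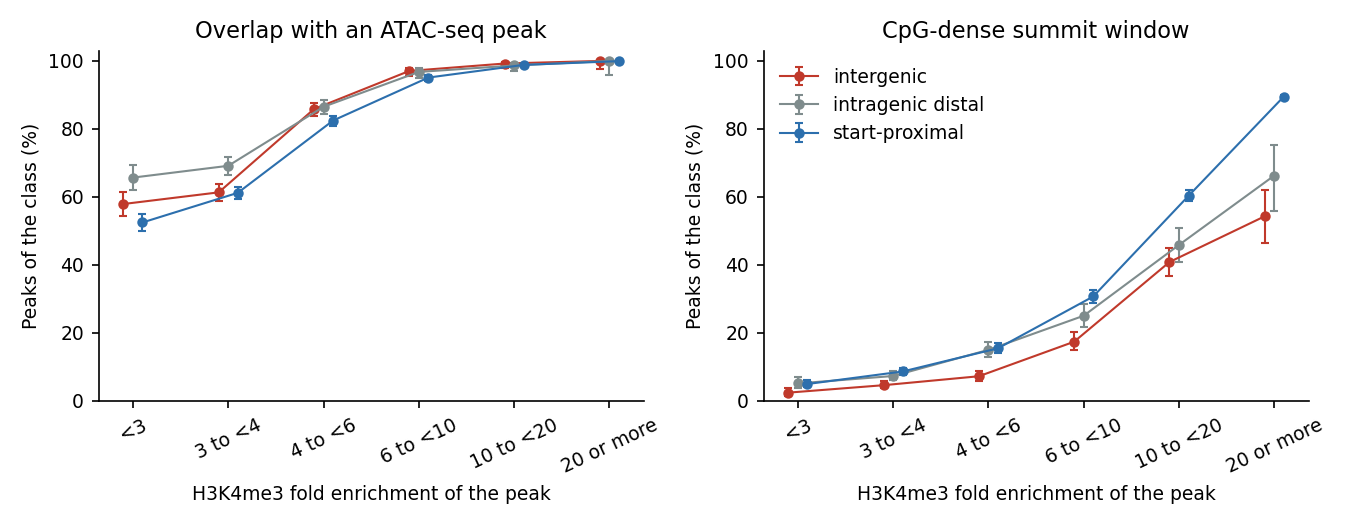
Share of peaks (%, vertical axes) that overlap an ATAC-seq peak (left) and that have a CpG-dense summit window (right), by range of H3K4me3 fold enrichment (horizontal axes) for the 3 classes of peaks. Points are shares and bars 95% Wilson intervals. The ATAC-seq shares of intragenic distal peaks lie above the others under a fold enrichment of 4, and those of all classes are over 95% from 6. At 20 or more 54.3% of the intergenic and 89.5% of the start-proximal peaks are CpG-dense.

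For 7 of 10 short motifs searched on both strands, the intervals of the shares in the intergenic summit windows and in the windows 5 kb away did not overlap. The octamer ATGCAAAT, which Oct4 (Pou5f1) binds, was in 2.02% of the intergenic windows and in 2.18% of the windows 5 kb away, against 1.05% of the windows of all 32496 peaks of chromosomes 1 to 19. GGGNGTGG, a Klf motif, was in 14.2% (13.3 to 15.2) of the intergenic windows, 9.72% (9.15 to 10.3) of those 5 kb away and 15.3% of all peaks. The CTCF core CCAGNNGGC was in 7.66%, 4.50% and 10.1%, in this order, and the TATA box TATAAA in 12.7%, 20.8% and 7.52%. The Sox motif CATTGT was in 12.4% of the intergenic windows, 16.0% of those 5 kb away and 8.44% of all peaks. The motif TCAAGGTCA for Esrrb was likewise less frequent than 5 kb away, with 0.520%, 1.03% and 0.382%. The E box CACGTG, at 5.54%, 3.62% and 5.78%, and GCGCATGCG for Nrf1, at 0.520%, 0.0800% and 0.452%, were more frequent than 5 kb away. The intervals overlapped for the octamer, for TTCCNGGAA, a Stat motif in 52 of the 5002 intergenic windows and 101 of the 10004 windows 5 kb away, and for AAGATGGCG, a YY1 motif, at 0.220%, 0.320% and 0.828%. The sets of windows differ in GC content, and a match is a description and not a bound site.

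Transfer RNA genes stood at a large part of the strongest intergenic peaks. Because GENCODE M21 lists no tRNA genes, the intergenic peaks were compared with RefSeq on the same build, a step chosen after the strongest peaks had been seen. RefSeq tRNA genes overlapped 57 intergenic peaks (1.14%), which were spread over 12 chromosomes and held 82 tRNA genes. They also overlapped 86 start-proximal peaks (0.375%) and 6 intragenic distal peaks (0.145%). The 57 intergenic ones had a median fold enrichment of 24.8 (22.4 to 30.0) and a median width of 2075 bp, and 43 of them reached a fold enrichment of 20. The weakest had 6.62, and all 57 overlapped an ATAC-seq peak. They were 11 of the 20 strongest intergenic peaks, 22 of the 50 strongest and 36 of the 100 strongest.

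The summit lay beside the tRNA gene and not in it. None of the 57 summits was inside a tRNA gene, and the median distance from the summit to the nearest tRNA gene was 225 bp (25th to 75th percentile 199 to 321 bp, at most 1126 bp). The tRNA genes printed above are only 72 to 86 bp long, beside a median width of 2075 bp for these peaks. Whether summits avoid the genes more than other positions in the peaks was not tested. All 82 tRNA genes lay wholly inside a single ATAC-seq peak. The motif GTTCNANNC was found in 77 of the 82 (93.9%) and in 354 of the 386 RefSeq tRNA genes of chromosomes 1 to 19. It is short, and 11.0% of the intergenic summit windows held it against 17.2% of the windows 5 kb away. The 82 genes covered 18 amino acids, led by alanine with 9 of its 21 genes, leucine with 8 of 25, and aspartate and glutamate with 6 each. For phenylalanine, 5 of the 7 genes were in intergenic peaks. Over all amino acids the share was 82 of 386 (21.2%), and the amino acids given here were named for their counts.

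Of the 386 tRNA genes, 251 (65.0%) overlapped an H3K4me3 peak of any class, and 250 of these 251 overlapped an ATAC-seq peak. Without an H3K4me3 peak, 56 of 135 did so (41.5%, 33.5 to 49.9). The tRNA genes far from GENCODE genes numbered 184, of which 82 (44.6%) were in intergenic peaks and 130 overlapped an ATAC-seq peak. Chromosome 13 held 28 of the 57 peaks with 36 tRNA genes, 23 of these peaks (40.4% of the 57) between 21 and 22 Mb. Histone genes of the Hist1 cluster also lie there. The same region, taken to slightly past 22 Mb, held 59 of the 386 tRNA genes (15.3%), with or without a peak. Part of this concentration therefore goes with where tRNA genes lie. Many tRNA genes have near-identical copies, and how the authors' pipeline treated reads that fit several copies is not given in the sources used here, so the value of a single copy is uncertain.

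The 8 strongest intergenic peaks had fold enrichments from 40.9 to 61.0, and 6 of them held tRNA genes. After the peaks at chr19:12009768-12012361, chr2:122377451-122378794 and chr13:21855294-21856783, with fold enrichments of 61.0, 60.1 and 57.1, the next was chr3:51357133-51360278 with 2 proline tRNA genes and a fold enrichment of 49.6. The peak chr13:21881437-21883904 held an isoleucine and a phenylalanine tRNA gene and had 47.2. The peak chr5:125403485-125407541, with 3 tRNA genes and 43.6, lay 8356 bp from the start of Dhx37, an RNA helicase gene. The 2 without a tRNA gene were of different kinds. The peak chr9:32031515-32033741 had a fold enrichment of 47.3 and a GC content of 85.0% around its summit. It covered a RefSeq start of Arhgap32, a GTPase activating protein gene, and lay 82395 bp from the nearest GENCODE start of this gene. The peak chr2:22743997-22745299, with 40.9 and 2 ATAC-seq peaks, overlapped no RefSeq gene and lay 10672 bp from the nearest RefSeq start and 28795 bp from the nearest GENCODE start of Apbb1ip, an adaptor protein gene.

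RefSeq starts other than those of tRNA genes lay within 1 kb of 406 intergenic peaks (8.12%), 343 of them starts of long noncoding RNAs and 60 of protein-coding genes. Their median fold enrichment was 5.54 (4.97 to 6.25) and 91.4% (88.3 to 93.7) overlapped an ATAC-seq peak. Besides Arhgap32, the strongest covered RefSeq starts of Rph3al (35.4), of Gm2102 beside the paired box gene Pax3 (34.9), of Tln2, which encodes a talin of focal adhesions (33.9), and of the noncoding Gm31194 (33.3). A further 556 intergenic peaks were only inside a RefSeq gene body, with a median fold enrichment of 4.05. The other 3983 (79.6%) had no RefSeq gene and no start within 1 kb. These 3983 had a median fold enrichment of 4.14 (4.05 to 4.21), and 76.5% (75.2 to 77.8) overlapped an ATAC-seq peak. Among them, 69 still had a fold enrichment of 20 or more, such as chr6:128759590-128761675 (39.9), chr19:44725554-44726785 near Pax2 (37.7) and chr12:8640016-8641803 near Pum2 (37.3).

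**Figure D3:**
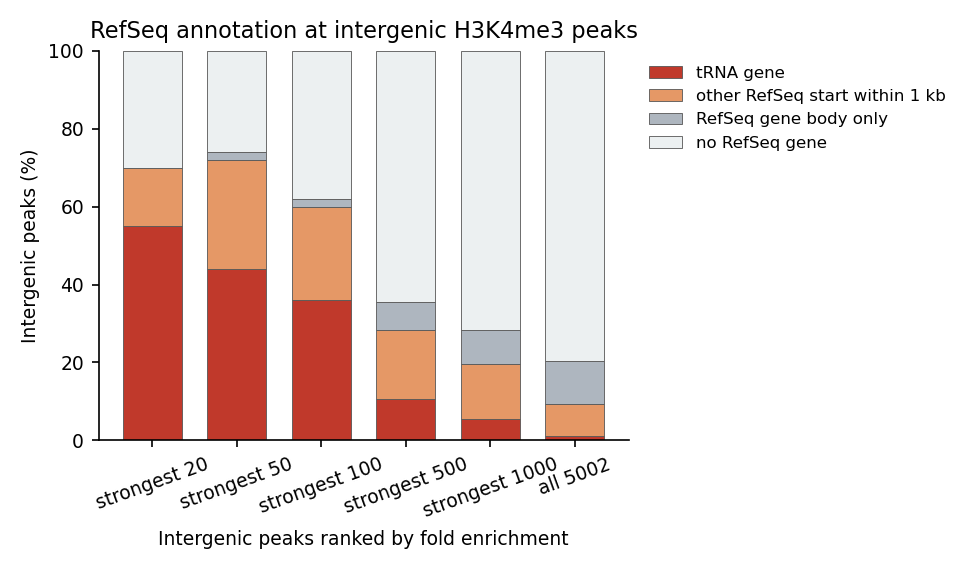
Share of intergenic peaks (%, vertical axis) at a tRNA gene, within 1 kb of another RefSeq start, only inside a RefSeq gene body, or at no RefSeq gene, for the strongest 20 to 1000 and for all 5002 by fold enrichment (horizontal axis). The tRNA share is 55.0% of the strongest 20 and 1.14% of all.

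The widest intergenic peak, chr13:21993740-21998365, also held 2 tRNA genes, with a fold enrichment of 21.8 and 4 ATAC-seq peaks. The next 2 in width held none. The peak chr9:123930000-123934367 spanned 4368 bp and had a fold enrichment of only 3.87, near the chemokine receptor gene Ccr1. The peak chr19:23089909-23094197 was 4289 bp wide with 13.6, 47029 bp from Klf9, a zinc finger transcription factor gene.

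Enhancers that RefSeq lists as functional elements overlapped 72 intergenic peaks (1.44%, 1.145 to 1.81), against 1.21% (0.918 to 1.59) of the intragenic distal and 0.440% of the start-proximal peaks. The 72 had a median fold enrichment of 6.17, and 69 of them overlapped an ATAC-seq peak. In the intergenic sequence lay 221 elements from VISTA, a collection tested in transgenic mouse embryos. Of these, 59 (26.7%, 21.3 to 32.9) overlapped an intergenic H3K4me3 peak, and 125 were in open chromatin by an ATAC-seq peak. The other RefSeq enhancers there did so in 10 (10.8%, 5.95 to 18.7) and 29 of 93 cases. VISTA elements were longer, with a median of 2257 bp against 1045 bp, and the part of length in the higher share was not tested.

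Intergenic peaks were more often single than clustered. With peaks joined where at most 10 kb lay between them, 2076 (41.5%, 40.1 to 42.9) were in clusters of 2 or more, and 2926 were single. There were 577 pairs, 159 clusters of 3 and 96 larger clusters. The median distance to the nearest other intergenic peak was 19064 bp, with 978 peaks (19.6%) within 1 kb of another and 1489 (29.8%) over 100 kb from any other. Clustered peaks did not have a higher median, with a fold enrichment of 4.13 (4.03 to 4.26) against 4.30 (4.15 to 4.40) for single peaks. A fold enrichment of 20 or more was nevertheless found for 2.80% of the single peaks, 3.32% of the clustered peaks and 6.29% of those in clusters of 4 or more, and 41 of the 57 peaks with a tRNA gene were clustered. The share with an ATAC-seq peak was 79.6% (78.1 to 81.0) for single peaks, 75.5% (73.6 to 77.3) for clustered peaks and 68.3% (63.9 to 72.5) for the 445 peaks in clusters of 4 or more.

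The 3 clusters with the most peaks differed from each other. The cluster of 13 peaks at chr13:21215037-21279770, between Trim27, a ubiquitin ligase gene, and Gpx5, a glutathione peroxidase gene, held 11 peaks with a tRNA gene. These 11 had fold enrichments from 8.68 to 39.8, while the 2 peaks without a tRNA gene had 2.39 and 2.46. The cluster of 12 peaks at chr17:27261617-27300180, 57148 to 95282 bp from the start of Lemd2, a nuclear membrane protein gene, had fold enrichments from 2.30 to 4.82. Only 2 of these 12 overlapped an ATAC-seq peak. In the cluster of 8 peaks at chr16:13748429-13759363, between Pla2g10 and Rrn3, a single CpG-dense peak had a fold enrichment of 32.8 and the other 7 had 2.53 to 8.14. Of these 8 peaks, 4 overlapped an ATAC-seq peak.

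**Figure D4:**
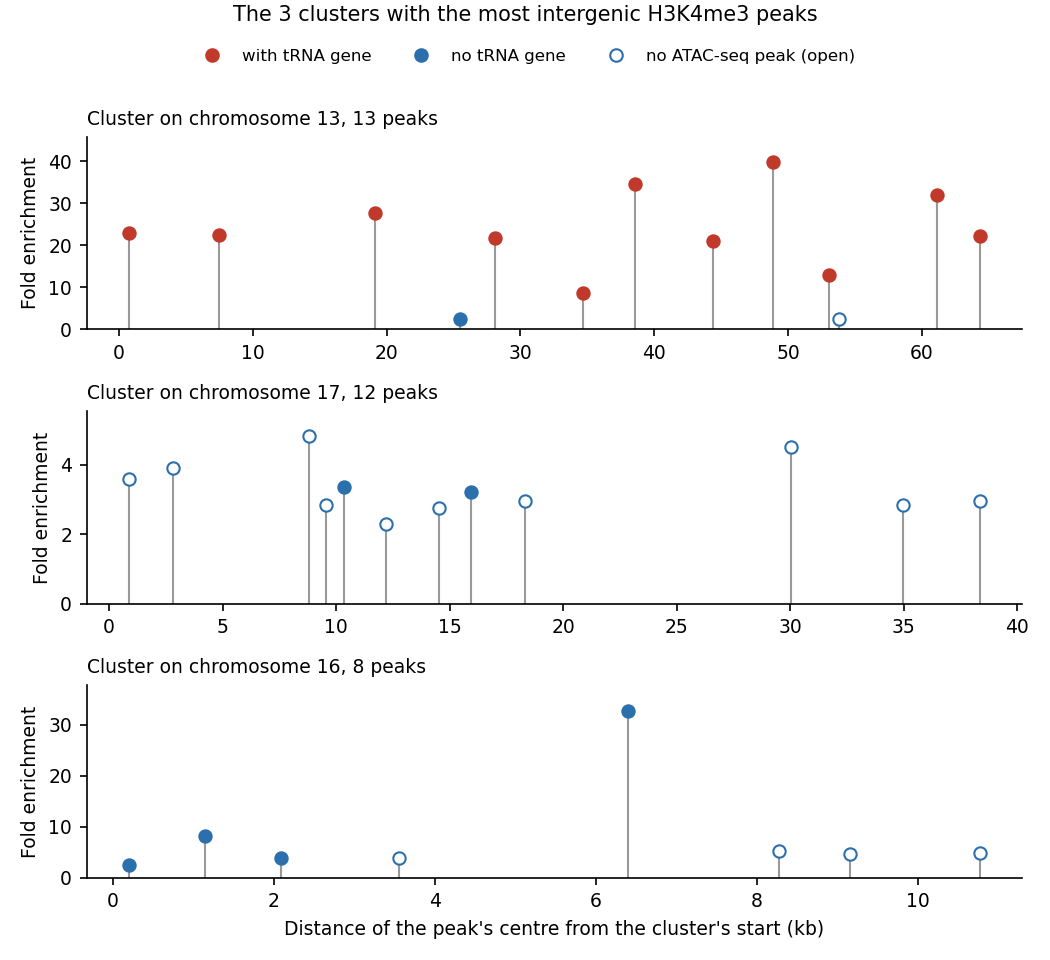
Fold enrichment (vertical axes) of each intergenic peak in the 3 largest clusters against the distance of its centre from the start of its cluster (kb, horizontal axes). Red points hold a tRNA gene, blue points hold none and open points have no ATAC-seq peak. The chromosome 13 cluster reaches 39.8 at tRNA genes, the chromosome 17 cluster stays under 5 with mostly open points, and the chromosome 16 cluster has a single peak of 32.8 among weak ones.

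Counted in steps of 1 Mb, 1502 steps held an intergenic peak, with a median of 2 and 74 steps with 10 or more. The richest was the tRNA region of chromosome 13 from 21 to 22 Mb, with 31 peaks, of which 30 overlapped an ATAC-seq peak. The next was chromosome 11 from 20 to 21 Mb, with 25 peaks, a median fold enrichment of 3.72 and 13 with an ATAC-seq peak. Around Sall4 and Zfp64 on chromosome 2, from 168 to 169 Mb, there were 24 peaks with fold enrichments from 2.37 to 20.95. Only the region of chromosome 13 held tRNA peaks among the 12 richest steps.

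The nearest protein-coding gene of the 5002 intergenic peaks came from 2899 genes, which is 13.9% of the 20807 protein-coding genes of chromosomes 1 to 19. For 4229 intergenic peaks (84.5%, 83.5 to 85.5) that gene had an H3K4me3 peak within 1 kb of a start. Of the 2899 genes 82.1% (80.7 to 83.5) were so marked, and of the 17908 genes nearest to no intergenic peak 68.0% (67.3 to 68.7). The gene with the most was Lemd2 with 15, of which 4 overlapped an ATAC-seq peak, followed by the kinase gene Vrk1 with 12, of which 11 did. Rpl38 and Gm14403 had 11 each, and 10 and 3 of these overlapped an ATAC-seq peak. None of the 9 peaks nearest to A830018L16Rik on chromosome 1 overlapped one, and their fold enrichments had a median of 2.86 and a maximum of 3.87. The 9 peaks nearest to Pax2, a paired box gene, ranged from 2.82 to 37.7. These genes were named for their counts, after the values were seen.

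Beside the 13.9% of all protein-coding genes that were the nearest gene of an intergenic peak, the share was over 30% in several lists of genes of embryonic stem cells and development, and also in the fibroblast markers. The counts were 18 of 33 pluripotency genes (54.5%), 24 of 41 genes of LIF, Wnt, FGF and Nodal signalling (58.5%), 8 of 16 formative and primed genes, 7 of 12 trophoblast genes, 4 of 12 primitive endoderm genes and 88 of 172 developmental transcription factor genes (51.2%). Genes with wide intergenic flanks have more room for such peaks, so the peaks were also counted per Mb of the intergenic sequence nearest to each list. The density was 10.4 per Mb for the pluripotency list, 15.2 for signalling, 11.0 for formative and primed, 13.4 for trophoblast and 9.79 for developmental factors, against 4.78 over all genes. The primitive endoderm list, at 3.11 per Mb, was under this value. Cytosolic ribosomal protein genes had 13 of 79 (16.5%) and 9.81 per Mb, with 11 of their 30 peaks nearest to Rpl38. The Hox genes had 6 of 39 (15.4%) and 13 peaks, at 42.2 per Mb of only 0.308 Mb of such sequence. Germline genes had 2 of 13 (15.4%) and 11.1 per Mb, with Prdm1 taking 5 of the 6 peaks, and two-cell genes 0 of 10. Olfactory receptor genes had 32 of 1128 (2.84%) at 3.76 per Mb. Of the fibroblast markers 4 of 10 (40.0%) were the nearest gene, at 6.80 per Mb. Several genes are in more than 1 list, and no test of the lists was made.

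**Figure D5:**
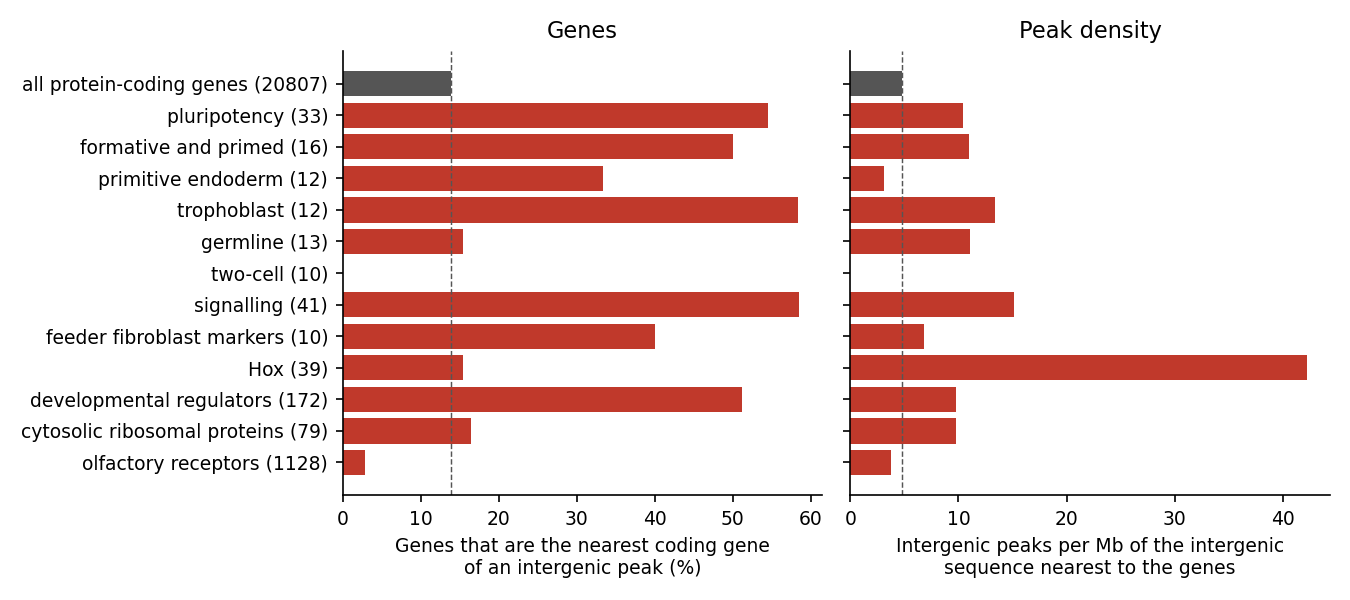
Left, share of the genes of each list (number of genes in brackets) that are the nearest protein-coding gene of an intergenic peak (%, horizontal axis), and right, intergenic peaks per Mb of the intergenic sequence nearest to these genes (horizontal axis). Dashed lines mark all protein-coding genes, at 13.9% and 4.78 per Mb. All lists exceed both lines except primitive endoderm, which lies under the right line, and olfactory receptors and two-cell genes, which lie under both. On the left, the Hox (15.4%), germline (15.4%) and cytosolic ribosomal protein (16.5%) lists lie near the line.

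The pluripotency list had 55 intergenic peaks in all, of which 46 overlapped an ATAC-seq peak, with a median fold enrichment of 4.79. Over all 5002 intergenic peaks 77.9% overlapped an ATAC-seq peak, and the median was 4.21. Klf4, a Krüppel-like factor gene, had 3, with fold enrichments of 8.99, 14.6 and 27.1 at 50271, 16328 and 118161 bp from its start, all 3 with an ATAC-seq peak and a CpG-dense window. Sall1, a zinc finger gene, had 8, from 3.42 to 16.5, the strongest being chr8:89051929-89053914 at 7767 bp. Its relative Sall4 had 3, the strongest being chr2:168839543-168840730 at 71600 bp with 15.0. Nanog, the homeobox gene of naive cells, had 1 at chr6:122669592-122670508, 36981 bp away, with 13.7 and an ATAC-seq peak.

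Sox2, which encodes a partner of Oct4, had 7 intergenic peaks between 41471 and 480932 bp from its start, and 6 of them overlapped an ATAC-seq peak. The strongest, chr3:34756766-34758437, had a fold enrichment of 10.9 at 106361 bp, and 2 weaker ones of 3.63 and 3.41 followed at 109180 and 113809 bp. The homeobox gene Gbx2 had 12.0 at 9885 bp, Trim71, an RNA-binding ubiquitin ligase gene, 11.9 at 19288 bp, and the nuclear receptor gene Nr5a2 10.2 at 260868 bp. At the low end, Lefty2, a Nodal inhibitor gene, had 1 at 2.47 and Zfp42 had 1 at 2.67, and neither overlapped an ATAC-seq peak. The nearest gene is a matter of distance, and whether a peak acts on it was not tested.

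All 8 markers of embryonic stem cells (Pou5f1, Sox2, Nanog, Esrrb, Klf4, Zfp42, Tfcp2l1 and Dppa4) had an H3K4me3 peak within 1 kb of a start. So did 7 of 10 markers of feeder fibroblasts, Col3a1, Postn and Fap being the exceptions, with fold enrichments from 4.92 at Acta2 to 28.2 at Twist1. Among all 20807 protein-coding genes of chromosomes 1 to 19, 14559 (70.0%) had such a peak, so the fibroblast markers were near the share of any gene. The presence of the mark at these starts therefore did not separate both cell types, and the part of feeder cells in the intergenic peaks was not tested.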

How the data were processed

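H3K4me3 ChIP-seq and ATAC-seq peaks of F123 cells were used as the authors deposited them. The H3K4me3 list came from the ENCODE pipeline for histone ChIP-seq at default parameters. Its columns were deposited as a fold enrichment (a ratio over background), −log10 p and q values, a display score and a summit. Its aligner, peak caller and versions are not given in the sources used here. The ATAC-seq list, deposited as positions only, came from MACS2 2.1.1.20160309. The authors had aligned the reads to mm10 in Bowtie 1.1.2, shifted their ends by 4 bp, and handled files in bedtools 2.27.1 and SAMtools. The ATAC-seq list holds peaks of the pooled data that were also found in each replicate. The authors call the H3K4me3 list replicated as well, but what this required of each replicate was not checked. Because no read counts are held, library depth is unknown.

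Peaks were set against GENCODE M21 and against GRCm38.p6 with RefSeq annotation release 108.20200622, whose FASTA gave sequences and repeat masking. Distances were taken from the edge of a peak, and an overlap was at least 1 bp. The nearest gene was the protein-coding gene with the closest transcript start. Regions named were the 8 strongest, 3 widest and 3 farthest peaks, the 3 largest clusters, the strongest peak of up to 8 pluripotency genes and the peaks at the limits of the rule, of which 1 is not reported here. The peaks and gene lists were chosen with earlier results of these data known. Symbols that only share a prefix with a family were removed from the developmental list after its values were seen. Computations ran in pandas 2.3.3, pysam 0.24.0, scipy 1.17.1, matplotlib 3.10.9 and numpy 2.4.6 under Python 3.11.15, and overlaps, distances and classes were checked on simulated intervals against bedtools 2.31.1. The alternatives were a −log10 q of at least 5, 10 kb from starts, fewer gene types, chromosomes X and Y, peaks within 1 kb merged, other overlaps with ATAC-seq peaks, cluster gaps of 5 and 25 kb and a window of 600 bp. Leaving out peaks at RefSeq genes was added after seeing the data.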

Additional observations from a re-analysis of the deposited data

Results flagged for a closer look

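Chromosome X, which the rule leaves out, held 124 peaks that met its other conditions, among 940 H3K4me3 peaks. They had a median fold enrichment of 5.08, and 107 of the 124 overlapped an ATAC-seq peak. They are given because they lie in data that the comparisons do not use. Chromosome Y held 7 such peaks among 13.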

How the results depend on the processing

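No paired analysis was possible because each assay has a single list for both replicates, and for the same reason no replicate could be left out. Only the difference in ATAC-seq share to start-proximal peaks has a direction, and it stayed negative under each alternative tried for it. None of these alternatives matched the peaks for strength. The number of intergenic peaks stayed within 1.5 times of 5002 under every alternative, from 3612 (over 10 kb from starts) to 5923 (protein-coding and long noncoding genes only). A −log10 q of at least 5 gave an ATAC-seq share of 84.0%, a median fold enrichment of 4.69, 37.8% in clusters, 14.1% CpG-dense and a difference to start-proximal peaks of −8.26 points. Over 10 kb from starts these were 76.4% for the ATAC-seq share, 4.15 for the median fold enrichment and 39.3% in clusters. Peaks within 1 kb merged gave 80.3%, 4.40, 27.5% in clusters and a difference of −14.3 points. Merging turns neighbours within 1 kb into a single peak, so its share in clusters counts other units than the main value. Fewer gene types gave 14.7% CpG-dense. The ATAC-seq share and the difference were 59.2% and −20.7 points where an overlap needed 50% of the ATAC-seq peak, 67.4% and −16.7 for the wider 50% of ATAC-seq peaks alone, and 50.6% and −21.8 with the summit inside an ATAC-seq peak. Gaps of 5 and 25 kb gave 34.01% and 53.3% in clusters, and a window of 600 bp gave 7.96% CpG-dense. Leaving out peaks at any RefSeq gene or start, chosen after seeing the data, gave 76.5%, 4.14 and 38.7% in clusters. The other 24 of 49 values stayed within 1.5 times of the count or within the interval of the value reported. The cause of each shift was not tested.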
